A study of Drosophila melanogaster with 90 samples.

Results

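The 10 genes described here, vas, krimp, tej, tapas, qin, spn-E, tud, armi, zuc and shu, encode cytoplasmic factors of the piRNA pathway in the Drosophila melanogaster ovary. They were chosen by name, each symbol being matched to its FlyBase identifier, and make up 10 of the 17493 genes counted. The study sequenced polyA RNA in 90 libraries, 3 for each of 30 genotypes, from ovaries with reduced or altered function of sov (small ovary), a gene that encodes a large zinc-finger protein. Each library was made from a pool of 15 ovaries of females aged 4 to 5 days and kept at 25 °C, and stranded libraries were prepared from 200 ng of total RNA, to which 10 pg of ERCC control RNA from pool 78A or 78B had been added.

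The genotypes fall into 5 groups by the labels. The 7 sterile sov mutants were the NP6070 homozygote, Dfsov, sovEA42 and sovML150 each over KG00226, and the same 3 chromosomes each over sov2. The 7 fertile sov mutants were KG00226/KG00226 and the trans-heterozygotes of KG00226, NP6070 and sov2 in both written orders. The 10 controls were w1118/w1118, the heterozygotes Dfsov/w1118, sovEA42/w1118 and sovML150/w1118, and KG00226, NP6070 and sov2 over w1118 in both orders. KG00226 is a P{SUPor-P} insertion, NP6070 a P{GawB} insertion on a y w chromosome, and the sov2 chromosome also carries y, cv, v and f. The Dfsov and sovML150 chromosomes themselves carry the w1118 mutation of white. Every control had at least 1 unmutated sov copy from w1118, and the mutants had none. The 3 sov RNAi genotypes, all labelled sterile, expressed the hairpin HMC04875, inserted at attP40, under da-Gal4, nos-Gal4 or tj-Gal4. The 3 fertile mCherry RNAi genotypes expressed a hairpin against mCherry, inserted at attP2, under the same drivers. The da driver is active in all cells, nos in the germline and tj in somatic cells of the ovary. The sov and mCherry hairpins sit at different sites, so hairpin and insertion site cannot be told apart.

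PiRNAs are small RNAs that guide Piwi-family proteins to transposon transcripts in the gonad. In germ cells their biogenesis is centred on the nuage, a perinuclear assembly of helicases and Tudor-domain proteins in which Aubergine and Argonaute 3 cut transposon and precursor RNAs in turn. Other precursors are handed to the outer membrane of mitochondria, cut there and loaded onto Piwi. Many factors of this pathway, though not necessarily each of those described here, are known for sterility when lost and for keeping transposons silent in the ovary.

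A library held between 2110 and 13164806 gene counts (median 4346724.5). The 3 libraries under 100000 gene counts (sov2/w1118 replicate 1, Dfsov/sov2 replicate 3 and sovML150/KG00226 replicate 2) were left out of the levels below, and the others held at least 932267. Levels are given as CPM, counts divided by the library's total after scaling by edgeR's trimmed mean of M-values (TMM). The sov transcript did not follow the labels throughout. It averaged 83.9 CPM (Dfsov/KG00226) to 333 CPM (sovML150/sov2) in sterile genotypes, with a median of 192 CPM, 126 to 236 CPM in fertile genotypes, and 100.2 to 199.9 CPM in controls, with a median of 150.4 CPM. In the RNAi genotypes sov averaged 128 CPM with the sov hairpin against 179.9 CPM with the mCherry hairpin under da-Gal4, 170.2 against 164 CPM under nos-Gal4, and 224 against 161 CPM under tj-Gal4. Each group is therefore called by its label, and no statement here rests on a measured loss of sov RNA. The defining germline markers osk, bcd, grk and orb were detected in every library over 100000 counts, whereas cup was listed at 0 in all of them. Of the other germline markers, BicC had a median of 0 counts in each group, and bgcn was at 0 in 1 fertile and 1 control library.

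The genes lie on 4 chromosome arms of the release 6 genome (BDGP6 annotation). The vas gene (FBgn0283442) spans 2L:15061656-15074311 on the plus strand, and zuc (FBgn0261266) spans 2L:11988735-11989882 on the minus strand. On 2R lie krimp (FBgn0034098, 16238103 to 16240722, minus), tej (FBgn0033921, 14300103 to 14302353, minus), tapas (FBgn0027529, 20319180 to 20325973, plus), tud (FBgn0003891, 21183322 to 21192913, plus) and shu (FBgn0003401, 23841461 to 23843286, minus). The armi gene (FBgn0041164) spans 3L:3461317-3466314 on the plus strand. On 3R lie qin (FBgn0263974, 18591027 to 18650137, plus) and spn-E (FBgn0003483, 15837419 to 15844415, plus). The exons of solo, on the same strand, cover 563 bp (24.6%) of the vas exons, and solo had 3192 counts over all 90 libraries. The annotated gene CG46463 covers 99.6% of the armi exons on the same strand and has no row in the counts. The armi counts may thus include its reads, which cannot be separated here. Opposite-strand overlaps were at most 5.8% of a member's exon length (zuc with CG34163). Whether counting used strand is not given in the sources used here.

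Per kilobase of exon, vas was the most abundant of the 10 in w1118/w1118 ovaries, at 103.7 ± 8.27 CPM per kb (SD, n = 3). It encodes a DEAD-box RNA helicase around which nuage assembles. Next came armi (47.9 ± 2.5 CPM per kb), tud (47.0 ± 1.7), tapas (42.3 ± 3.5) and shu (40.9 ± 2.7), whose neighbours in this order differed by less than the sum of their SDs. The levels per kb of tej (32.0 ± 0.74), spn-E (30.4 ± 1.8) and krimp (26.6 ± 1.2) followed, and tej and spn-E also differed by less than the sum of their SDs. The lowest were zuc, at 17.1 ± 1.1 CPM per kb, and qin, at 6.93 ± 0.6 CPM per kb. All 10 passed the filter on low counts in every comparison. Counts in a single library over 100000 ran from 17 to 249 for zuc, the gene with the fewest counts, and from 478 to 6369 for tud, the gene with the most.

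**Figure D1:**
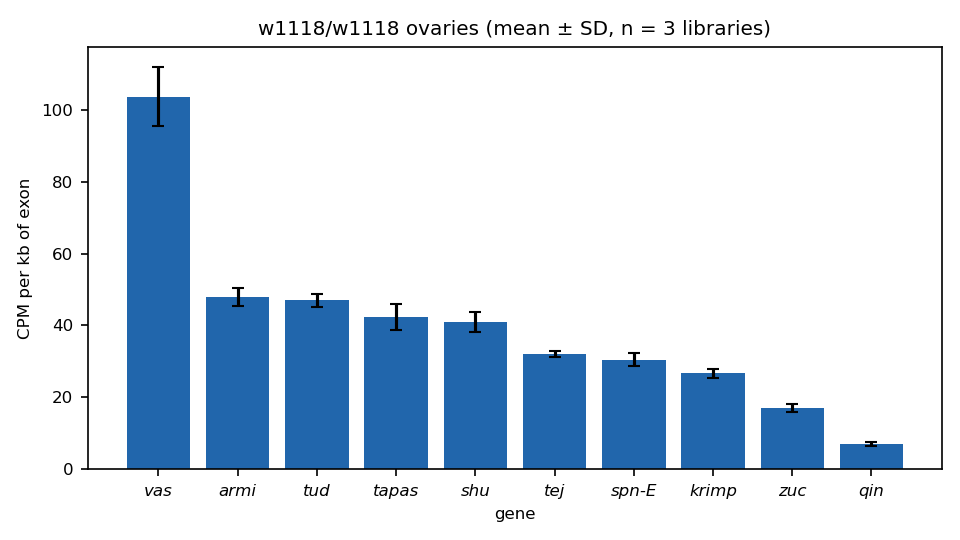
Levels of the 10 genes in w1118/w1118 ovaries, as CPM per kb of exon (bars, mean ± SD, n = 3 libraries). The vas bar stands at 103.7 CPM per kb and the qin bar at 6.93 CPM per kb.

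Over the 30 genotypes, the highest genotype mean of a member was 1.56 to 2.51 times its lowest. The narrowest range was that of tud, from 367 CPM in NP6070/w1118 to 572 CPM in Dfsov/sov2. The widest was that of shu, from 38.1 CPM in Dfsov/sov2 to 95.7 CPM in NP6070/NP6070. The genes armi (ratio 2.40), qin (2.33) and vas (2.30) were nearly as wide, while tej (1.60), zuc (1.64) and krimp (1.64) were narrow.

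The first comparison asks whether the 7 sterile sov mutants differ from the 10 controls, with the genotype as the replicate. Transcripts of vas and of tapas, a Tudor-domain nuage protein, were lower in the sterile mutants, and the other 8 genes did not pass the test. Thus 2 of 10 were called, both lower, by edgeR's quasi-likelihood test at an adjusted p under 0.05. Over all 8449 genes and elements tested, 3750 (44.4%) were called, 2077 higher and 1673 lower (497 higher and 7103 lower when scaled to the spike-ins, a scale described further on). The median log2 fold change was -0.13 over the 10 genes and 0.00 over all features tested.

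Genotype means of vas were 143.3, 198.3 and 240.8 CPM (lowest, median and highest) in the sterile mutants, against 224, 257 and 329 CPM in the controls. In 6 of 7 sterile genotypes vas lay below every control, and only sovEA42/KG00226, at the top of the sterile range, lay among them. The log2 fold change was -0.35 ± 0.08 (SE, 95% interval -0.53 to -0.18, edgeR adjusted p = 0.0017), or 0.783-fold. With libraries of pool 78A alone it was -0.37 (adjusted p = 0.017), and with those of pool 78B alone it was -0.31 (adjusted p = 0.052), which missed the threshold. Class and pool fits kept the libraries under 100000 gene counts. In pool 78B, Dfsov/sov2 and sov2/w1118 were each present only as such a library, of 16486 and 2110 gene counts.

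Genotype means of tapas were 129, 158.9 and 165 CPM in the sterile mutants, against 183.6, 193 and 221 CPM in the controls. All 7 sterile genotypes lay below all 10 controls, and also below all 7 fertile mutants. Such separation of genotype means was counted for the 10 genes only, in each class comparison. Its share among all features is not known. The log2 fold change was -0.34 ± 0.05 (SE, 95% interval -0.45 to -0.23, edgeR adjusted p = 2.18e-05). It was -0.30 (adjusted p = 0.0025) in pool 78A and -0.32 (adjusted p = 0.0079) in pool 78B.

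The other Tudor-domain genes of the nuage gave no call. The krimp gene, whose protein brings Argonaute 3 into the nuage, had medians of 62.2 CPM in sterile mutants and 64.8 CPM in controls, a log2 difference of 0.07 (edgeR adjusted p = 0.47). For tej the log2 difference was -0.13 (adjusted p = 0.16), with 4 of 7 sterile genotypes below every control. The qin gene, which encodes a RING and Tudor-domain protein of the nuage, gave 0.25 ± 0.11 (SE, adjusted p = 0.081), with 3 of 7 sterile genotypes above every control. The value for tud, a large protein with many Tudor domains, was 0.18 ± 0.08 (SE, adjusted p = 0.068), with 4 of 7 above every control. Both qin and tud were called higher in pool 78A alone, qin at 0.37 (adjusted p = 0.0497) and tud at 0.35 (adjusted p = 0.0071). That pool held no library of sovML150/KG00226, the sterile genotype with the lowest qin, tud and armi levels. The fits of single pools thus differ in genotypes as well as in pool.

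The helicase and processing genes did not pass either. The spn-E gene, which encodes a DExH helicase with a Tudor domain, gave -0.13 (edgeR adjusted p = 0.18). The RNA helicase gene armi, whose protein carries precursors to mitochondria, gave -0.22 (adjusted p = 0.12), and only in pool 78B was it called, at -0.36 (adjusted p = 0.026). The tej gene was also called in pool 78B alone, at -0.25 (adjusted p = 0.032). The zuc gene, which encodes the mitochondrial endonuclease that cuts precursors, gave -0.04 (adjusted p = 0.79). The cochaperone gene shu, needed to load Piwi proteins, gave -0.15 (adjusted p = 0.35), and its 7 sterile genotypes spread from 38.1 to 95.7 CPM around controls of 59.7 to 77.1 CPM. At least 1 of 24 fits that each left out 1 genotype called 6 of these genes (tej, qin, spn-E, tud, armi and shu), and every such fit called vas and tapas.

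**Figure D2:**
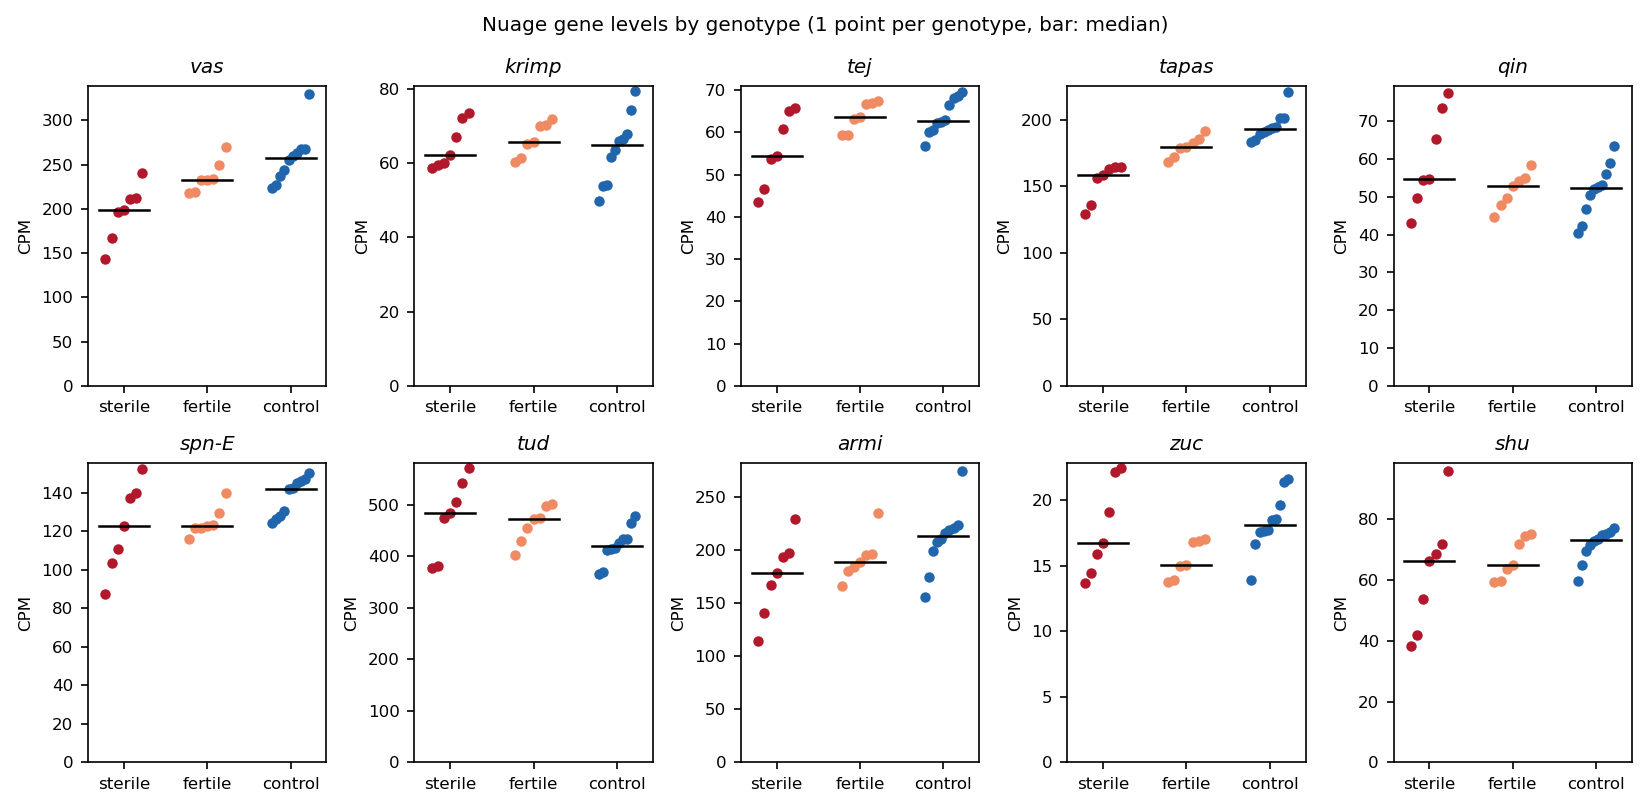
Mean CPM of each gene in the sterile mutants (left, 7 genotypes), fertile mutants (middle, 7) and controls (right, 10), with 1 point per genotype and a bar at the group's median. The tapas points of the sterile mutants, 129 to 165 CPM, lie below all those of the fertile mutants and controls.

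Markers of other cell types moved in the same comparison. All 14 tested muscle genes were higher in the sterile mutants, with summed levels of 894.9 to 15630 CPM against 705 to 1015 CPM in controls. Of 21 follicle cell genes, 17 were lower and 2 higher, with sums of 2621 to 37500 CPM in sterile mutants against 40460 to 71020 CPM in controls. Of 15 tested germline genes, 8 were lower and 1 was higher (median log2 fold change -0.25), with sums of 2652 to 4529 CPM in sterile mutants against 4721 to 5531 CPM in controls. Of 6 tested hemocyte genes, 3 were higher and 2 lower (median log2 fold change 2.19), with sums of 373 to 3258 CPM in sterile mutants against 308 to 1224 CPM in controls. Of 5 tested fat body genes, 2 were higher and 1 was lower (median 0.95), although their sums were 567 to 2965 CPM in sterile mutants against 2483 to 6344 CPM in controls. That list shares Yp1 with the follicle cell list, and Yp1 had a median of 4399 counts in sterile libraries and 17328 in control libraries, where no other fat body gene had a median over 126. The lowest germline sum and the lowest vas level were in the same genotype, sovML150/sov2, and the highest control germline sum and the highest vas level were both in sovML150/w1118. The lowest tapas level was in Dfsov/KG00226. The germline sum of that genotype was 4133 CPM, above the sterile median of 3793 CPM but below every control. Its muscle sum was 2289 CPM, the second lowest of the sterile mutants. NP6070/NP6070 had the lowest muscle sum of the sterile mutants, 894.9 CPM, within the control range. Its germline sum (4529 CPM) and follicle cell sum (37500 CPM) were below every control. The vas and tapas calls of NP6070/NP6070 are given with the single genotypes. In pooled ovaries, fewer cells of a type and less RNA per cell cannot be told apart, and the part of these shifts in the member values was not tested.

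The spike-ins gave a second scale. Gene counts per ERCC count had medians of 2194 (pool 78A) and 1810.5 (pool 78B) in sterile mutant libraries, against 5508 and 7161 in controls. Single libraries spread widely and overlapped in both pools. In pool 78A they ran from 835.9 to 7046 in sterile mutants and from 3023 to 9186 in controls. In pool 78B they ran from 634.7 to 6509 and from 4682 to 12460. Scaled to the spike-ins, the median log2 fold change of all features in sterile mutants against controls was -1.33, and all 10 genes were then called lower. Relative to that median, vas was at -0.28, tapas at -0.35, qin at 0.22 and tud at 0.08. All further fold changes are on the TMM scale, that is, relative to the bulk of the transcripts of a library.

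In the fertile sov mutants, set against the same controls, none of the 10 genes passed the test (edgeR, with 2 of 10 at an unadjusted p under 0.05 and 0 called by DESeq2). Over all features, 332 (3.93%) were called. The lowest, median and highest tapas levels were 168.6, 179.8 and 191.7 CPM in fertile mutants, and 5 of 7 genotypes lay below every control. The fold change was small, -0.12 ± 0.05 on the log2 scale (SE, edgeR adjusted p = 0.22). For vas the levels were 217.5, 232.8 and 269.8 CPM, with a log2 fold change of -0.11 (adjusted p = 0.55). For zuc the log2 fold change was -0.23 ± 0.11 (adjusted p = 0.27). The other log2 fold changes were -0.14 for spn-E, 0.12 for tud, -0.12 for armi, -0.11 for shu, 0.06 for krimp, 0.02 for tej and -0.02 for qin, with adjusted p from 0.38 (spn-E) to 0.96 (qin).

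Set directly against the fertile mutants, the sterile mutants had lower vas and tapas. Here 2 of 10 genes were called, beside 3016 (35.7%) of all features. The tapas difference was -0.21 ± 0.06 (SE, 95% interval -0.33 to -0.09, edgeR adjusted p = 0.0058), with no overlap between the 129 to 165 CPM of sterile and the 168.6 to 191.7 CPM of fertile genotypes. The vas difference was -0.24 ± 0.09 (95% interval -0.43 to -0.05, adjusted p = 0.041), with 6 of 7 sterile genotypes below every fertile one. The vas call was lost when Dfsov/sov2 (adjusted p = 0.062), NP6070/KG00226 (0.090), NP6070/sov2 (0.062), sovML150/KG00226 (0.085) or sovML150/sov2 (0.101) was left out, with either pool alone, and when reciprocal crosses were merged into 1 replicate each (-0.27, adjusted p = 0.078). The tapas call was lost only with either pool alone, among the alternatives run. The other differences were 0.27 for qin (adjusted p = 0.097), 0.19 for zuc (0.20), -0.14 for tej (0.16), -0.09 for armi (0.58), 0.06 for tud (0.63), -0.04 for shu (0.85), 0.01 for krimp (0.92) and 0.01 for spn-E (0.95). The sterile and fertile comparisons share their controls and their alleles.

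Each mutant genotype was then set against the mean of the heterozygotes of the alleles it carries, in a fit of libraries. Across 140 gene and genotype combinations, 36 were called (7 higher and 29 lower by edgeR). Of these, 33 were among the 70 combinations of the sterile mutants (7 higher, 26 lower) and 3 among the 70 of the fertile mutants, all lower. In the sterile genotypes the called members and the share of all 8751 features called were 4 of 10 beside 43.2% (Dfsov/KG00226), 6 of 10 beside 50.7% (Dfsov/sov2), 4 of 10 beside 26.0% (NP6070/NP6070), 3 of 10 beside 38.8% (sovEA42/KG00226), 4 of 10 beside 40.4% (sovEA42/sov2), 5 of 10 beside 52.2% (sovML150/KG00226) and 7 of 10 beside 61.9% (sovML150/sov2). In the fertile genotypes they were 1 of 10 beside 25.0% (NP6070/KG00226) and 2 of 10 beside 18.5% (NP6070/sov2). No member was called in KG00226/KG00226 (3.18% of features), KG00226/NP6070 (4.57%), KG00226/sov2 (6.9%), sov2/KG00226 (3.91%) or sov2/NP6070 (12.4%), where 2 to 4 of 10 were at an unadjusted p under 0.05. The shares of the 10 genes thus lay on both sides of the background. These background counts were themselves unsteady, and moved by over 1.5 times in 9 of 14 genotypes without replicate 1, in 9 without replicate 2, in 5 without replicate 3 and in 12 on the spike-in scale. The design text calls the 3 libraries of a genotype biological replicates, each a pool of ovaries, without naming separate crosses, so these p-values measure the spread between pools.

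**Figure D3:**
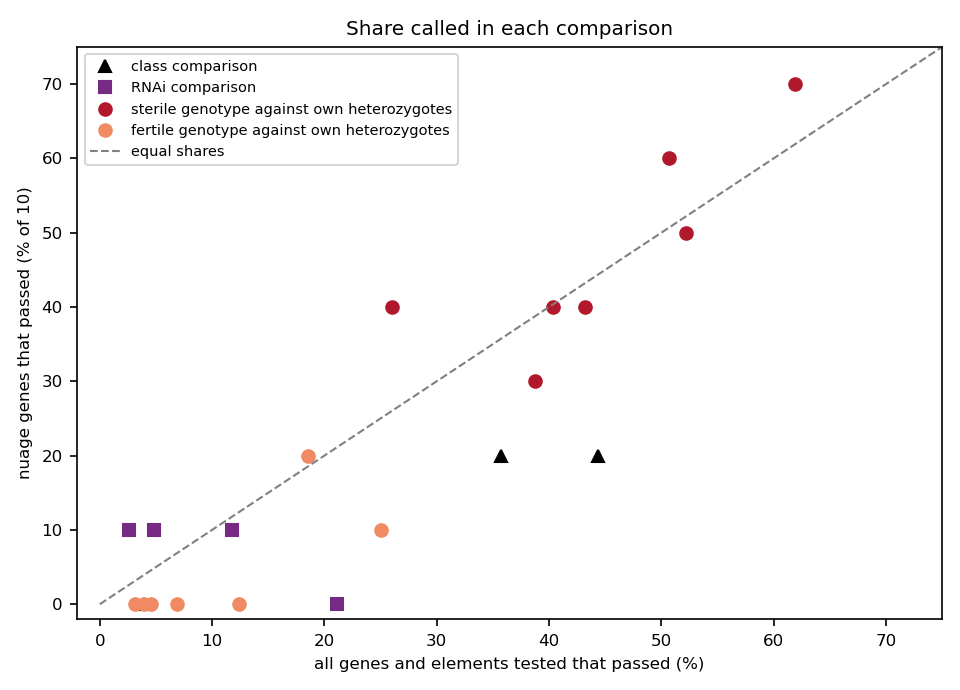
Share of the 10 genes called (vertical, %) against the share of all tested features called (horizontal, %), 1 point per comparison. Points lie on both sides of the dashed line of equal shares. Sterile mutants against controls (2 of 10 beside 44.4%) and da-Gal4 (0 of 10 beside 21.1%) lie below it, and nos-Gal4 (1 of 10 beside 2.62%) and NP6070/NP6070 (4 of 10 beside 26.0%) above it.

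The tapas gene was the only member called in all 7 sterile genotypes, with log2 fold changes of -0.57 to -0.19. The share of all features called in all 7 was not counted. All these contrasts but that of NP6070/NP6070 share heterozygotes with another, so they are not independent. In Dfsov/KG00226 its 3 libraries held 124.9, 132.3 and 130.1 CPM, against 193.1, 194 and 181 CPM in Dfsov/w1118, 193.4, 219.3 and 191.6 CPM in KG00226/w1118, and 175.8, 188.2 and 191.7 CPM in w1118/KG00226. No library of the mutant reached the lowest heterozygote library, and the log2 fold change was -0.57 ± 0.06 (SE, edgeR adjusted p = 1.21e-10). Separation of single libraries, here and in the genotypes below, was noted for the members only, and its share among all features is not known. The sovML150/KG00226 libraries, at 138.9 and 133.3 CPM, gave -0.51 ± 0.07 (adjusted p = 1.3e-07). NP6070/NP6070 had the smallest fall among sterile genotypes, with libraries at 165.8, 165.2 and 164 CPM and a log2 fold change of -0.19 ± 0.06 (adjusted p = 0.020). Falls of similar size were called in fertile NP6070/KG00226 (-0.17 ± 0.06, adjusted p = 0.027) and NP6070/sov2 (-0.20 ± 0.06, adjusted p = 0.013). Of the 9 tapas calls, 4 were made in all 3 fits that left out replicate 1, 2 or 3 of every genotype (both sovML150 genotypes, Dfsov/KG00226 and sovEA42/sov2). The call was lost in NP6070/NP6070 without replicate 2 (-0.18, adjusted p = 0.14) or 3 (-0.18, 0.16), and in NP6070/KG00226 without 1 (-0.18, 0.11) or 3 (-0.14, 0.25). It was lost in NP6070/sov2 without any 1 of the 3 (-0.23 to -0.16), in Dfsov/sov2 without 2 (-0.25, 0.054) and in sovEA42/KG00226 without 3 (-0.17, 0.13).

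The vas gene was called lower in 6 of 7 sterile genotypes, the exception being sovEA42/KG00226 with libraries at 212.1, 252.1 and 258.1 CPM and a log2 fold change of 0.03. How many of all features were called in as many of these linked contrasts was not counted. The largest fall was in sovML150/sov2, whose libraries held 146.6, 115.7 and 167.6 CPM. The heterozygotes of its alleles held 332.6, 328.3 and 327.3 CPM (sovML150/w1118), 287.5 and 247.9 CPM (sov2/w1118), and 242.1, 266.6 and 255.7 CPM (w1118/sov2). All 3 mutant libraries lay below every heterozygote library, and the log2 fold change was -0.96 ± 0.10 (SE, edgeR adjusted p = 1.95e-12). Against all 10 controls in place of these heterozygotes, it was -0.82 ± 0.09 (adjusted p = 1.39e-11). The sovML150/KG00226 libraries, at 159.8 and 174.7 CPM, gave -0.59 ± 0.11 (adjusted p = 1.03e-05). Smaller falls of -0.40 (adjusted p = 0.0014) in Dfsov/sov2, -0.30 (0.0069) in sovEA42/sov2, -0.28 (0.019) in NP6070/NP6070 and -0.27 (0.010) in Dfsov/KG00226 were each lost in at least 1 of the 3 fits without a replicate number. Those were without replicate 1 in Dfsov/sov2 (-0.33, adjusted p = 0.095), without 1 (-0.27, 0.066) or 2 (-0.24, 0.14) in sovEA42/sov2, without 3 in NP6070/NP6070 (-0.15, 0.42), and without 1 (-0.22, 0.13) or 2 (-0.27, 0.051) in Dfsov/KG00226.

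**Figure D4:**
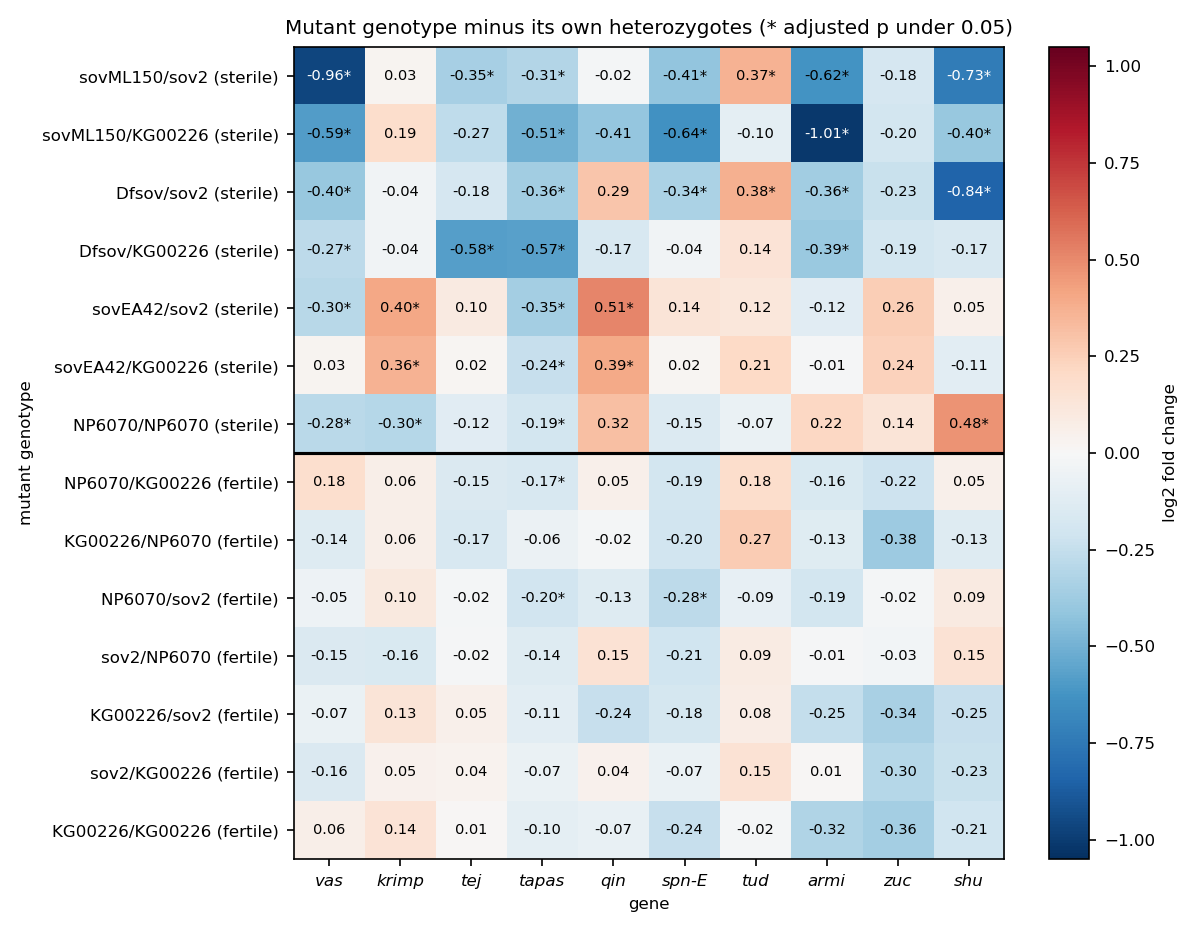
Log2 fold change of each gene (columns) in each mutant genotype (rows, sterile above fertile) against the heterozygotes of its own alleles, with an asterisk where the adjusted p is under 0.05. The tapas column is marked in all 7 sterile rows, and the strongest falls are armi in sovML150/KG00226 (-1.01) and vas in sovML150/sov2 (-0.96).

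Among the helicase genes, armi and spn-E were lowest in genotypes with sovML150. Libraries of sovML150/KG00226 held 94.2 and 134.9 CPM of armi. The heterozygotes held 225.8, 218 and 226.2 CPM (sovML150/w1118), 300.1, 271.7 and 252 CPM (KG00226/w1118), and 224.3, 219.5 and 217.7 CPM (w1118/KG00226). Both mutant libraries were far under every heterozygote library, with a log2 fold change of -1.01 ± 0.14 (SE, edgeR adjusted p = 3.02e-08), and -0.82 against all 10 controls. In sovML150/sov2, at 134.3, 132.2 and 155.2 CPM, armi fell by 0.62 ± 0.12 on the log2 scale (adjusted p = 9.5e-06). The armi falls in Dfsov/KG00226 (-0.39 ± 0.11, adjusted p = 0.0035) and Dfsov/sov2 (-0.36 ± 0.13, adjusted p = 0.018) were less firm. Dfsov/KG00226 was not called against all 10 controls (-0.22, adjusted p = 0.060), and Dfsov/sov2 was not called without replicate 1 (-0.39, 0.099) or 2 (-0.31, 0.22).

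For spn-E, sovML150/KG00226 libraries held 79.9 and 95.5 CPM and sovML150/sov2 libraries 97.4, 107.5 and 106.2 CPM, against 133.4, 124.1 and 126.3 CPM in sovML150/w1118. These mutant libraries were all below the sovML150 heterozygote. Against the heterozygotes of both alleles, the log2 fold changes were -0.64 ± 0.10 in sovML150/KG00226 (SE, edgeR adjusted p = 1.08e-06) and -0.41 ± 0.09 in sovML150/sov2 (adjusted p = 7.34e-05). The falls in Dfsov/sov2 (-0.34, adjusted p = 0.0037) and fertile NP6070/sov2 (-0.28, adjusted p = 0.012) were lost in Dfsov/sov2 without replicate 2 (-0.24, 0.19) and in NP6070/sov2 without 1 (-0.17, 0.28) or 2 (-0.31, 0.064).

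The shu gene was called in both directions. Libraries of Dfsov/sov2 held 40.6 and 35.7 CPM, and those of sovML150/sov2 held 49.2, 30.9 and 45.4 CPM. Their heterozygotes held 69.5, 73.2 and 81.7 CPM (Dfsov/w1118), 80.5, 75.6 and 68.9 CPM (sovML150/w1118), 64.1 and 55.2 CPM (sov2/w1118), and 71.5, 76.6 and 72.4 CPM (w1118/sov2). The mutant libraries did not reach the lowest of these, and the log2 fold changes were -0.84 ± 0.15 in Dfsov/sov2 (SE, edgeR adjusted p = 2.86e-06) and -0.73 ± 0.13 in sovML150/sov2 (adjusted p = 4.16e-06). In NP6070/NP6070, by contrast, shu libraries held 90.3, 100.4 and 96.3 CPM, against 78.8, 68.4 and 70.9 CPM in NP6070/w1118 and 64.8, 65.4 and 64.1 CPM in w1118/NP6070. This was a rise of 0.48 ± 0.11 (adjusted p = 0.0013), and all 3 shu calls were made in every fit without a replicate number. In sovML150/KG00226, with libraries at 40.8 and 66.3 CPM, the fall of -0.40 ± 0.14 (adjusted p = 0.016) was lost without replicate 1 (-0.14, adjusted p = 0.55).

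The remaining calls among Tudor-domain genes were fewer. In Dfsov/KG00226, tej libraries held 49.3, 37.3 and 43.6 CPM, against 66.9, 55.9 and 59.1 CPM in Dfsov/w1118, and tej fell by 0.58 ± 0.11 on the log2 scale (SE, edgeR adjusted p = 2.84e-05). All 3 libraries lay below those of Dfsov/w1118. The fold change also uses the KG00226 heterozygotes, whose libraries are not listed here. In sovML150/sov2, with libraries at 40.0, 41.2 and 58.7 CPM, the tej value of -0.35 ± 0.12 (adjusted p = 0.0096) was lost without replicate 1 (-0.32, 0.058) or 2 (-0.23, 0.16). The tud gene rose in the same 2 genotypes in which shu fell most. Its libraries held 620.4 and 523.7 CPM in Dfsov/sov2 and 490.2, 613.1 and 527.1 CPM in sovML150/sov2, against 444, 433 and 369 CPM in Dfsov/w1118, 356, 365.9 and 384.7 CPM in sovML150/w1118, 479 and 478.5 CPM in sov2/w1118, and 433, 338.6 and 529.1 CPM in w1118/sov2. The highest w1118/sov2 library overlapped both mutants. The rises were 0.38 ± 0.11 in Dfsov/sov2 (adjusted p = 0.0038), lost without replicate 1 (0.27, 0.18), and 0.37 ± 0.10 in sovML150/sov2 (adjusted p = 0.00099), lost without replicate 2 (0.20, 0.19).

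Both sovEA42 genotypes had higher krimp and qin than their heterozygotes. For krimp the libraries held 66.2, 76.5 and 73.9 CPM in sovEA42/KG00226 and 62.7, 75.2 and 82.9 CPM in sovEA42/sov2, against 46.6, 53.9 and 49.3 CPM in sovEA42/w1118, the control genotype with the lowest krimp. The other heterozygotes in these contrasts overlapped the mutants, with libraries from 51.01 (KG00226/w1118) to 73.37 CPM (w1118/KG00226) for KG00226 and from 54.05 (sov2/w1118) to 72.68 CPM (w1118/sov2) for sov2. The log2 fold changes were 0.36 ± 0.09 (SE, edgeR adjusted p = 0.0011) in the genotype over KG00226 and 0.40 ± 0.09 (adjusted p = 0.00032) in that over sov2. They were smaller, 0.20 and 0.22, against all 10 controls. Without replicate 2 the first was lost (0.32, adjusted p = 0.053), and without replicate 3 the second was lost (0.28, 0.068). For qin the libraries held 74.7, 98.6 and 46.9 CPM in sovEA42/KG00226 and 68.2, 95.7 and 68.4 CPM in sovEA42/sov2, against 49.4, 55.4 and 54.2 CPM in sovEA42/w1118. Heterozygotes of KG00226 held 39.94 (w1118/KG00226) to 71.49 CPM (KG00226/w1118), and those of sov2 held 48.27 (sov2/w1118) to 66.54 CPM (w1118/sov2). Replicate 2 was the highest in both mutants, and replicate 3 of sovEA42/KG00226 lay below the heterozygote. The qin rises were 0.39 ± 0.15 (adjusted p = 0.032) and 0.51 ± 0.15 (adjusted p = 0.0052), and without replicate 2 they were 0.06 (adjusted p = 0.86) and 0.32 (adjusted p = 0.23). Without replicate 1 the rise over KG00226 was 0.43 (adjusted p = 0.080), also not called. In NP6070/NP6070, krimp was lower by -0.30 ± 0.09 (adjusted p = 0.013) than its own heterozygotes, but at -0.02 (adjusted p = 0.96) against all 10 controls. That krimp call was also lost without replicate 2 (-0.24, adjusted p = 0.21) or 3 (-0.32, 0.072).

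No zuc value passed the test in any of the 14 genotypes against their own heterozygotes, where its log2 fold changes ran from -0.38 to 0.26. The zuc libraries held 17 to 249 counts. Against all 10 controls instead, 5 zuc values were called, 4 lower and 1 higher. The lower ones were -0.39 in Dfsov/sov2 (edgeR adjusted p = 0.023), -0.36 in sovML150/sov2 (0.021), and, in fertile mutants, -0.42 in KG00226/sov2 (0.017) and -0.38 in sov2/KG00226 (0.026). The higher one was 0.28 in sovEA42/KG00226 (0.046). Over all 10 genes, 15 of the 36 calls were made in each of the 3 fits that left out a replicate number, 4 of them for tapas, 3 each for armi and shu, 2 each for vas and spn-E, and 1 for tej. In Dfsov/sov2 and sovML150/KG00226 such a fit can leave 1 library, which is then assumed to vary like those of the other genotypes.

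The RNAi genotypes ask the same of each driver, with 3 libraries a group. Under the da driver, active in all cells, none of the 10 genes passed the test (edgeR, with 3 of 10 at an unadjusted p under 0.05 and 0 called by DESeq2), beside 1622 (21.1%) of 7700 features. The vas levels were 272.1, 251.2 and 224.9 CPM in ovaries labelled da-Gal4 sov RNAi and 260.2, 253.9 and 231.1 CPM in da-Gal4 mCherry RNAi ovaries, which overlapped fully. The tapas levels were 180.3, 164.4 and 190.7 CPM with the sov hairpin and 214.7, 188.7 and 196.0 CPM with the mCherry hairpin, for a log2 fold change of -0.16 ± 0.08 (SE, adjusted p = 0.16). The largest values were -0.33 for qin (adjusted p = 0.064), 0.30 for zuc (0.26) and 0.30 for krimp (0.082). For shu it was 0.28 (0.15), for armi -0.22 (0.091), for tej -0.20 (0.32), for spn-E 0.11 (0.34), for tud -0.04 (0.74) and for vas 0.01 (0.94). Leaving out da-Gal4 mCherry replicate 1 brought krimp (0.39, adjusted p = 0.037), qin (-0.46, 0.012) and armi (-0.31, 0.015) past the threshold. Leaving out da-Gal4 sov RNAi replicate 3 did so for qin (-0.40, 0.040), and leaving out da-Gal4 mCherry replicate 2 did so for shu (0.48, 0.012).

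Under the germline driver nos-Gal4, qin was higher in the ovaries labelled sov RNAi. Here 1 of 10 genes was called, beside 202 (2.62%) of 7700 features. The qin libraries held 48.6, 58.8 and 57.5 CPM in nos-Gal4 sov RNAi ovaries, against 35.4, 31.4 and 32.8 CPM in nos-Gal4 mCherry RNAi ovaries. The groups did not overlap, and the log2 fold change was 0.72 ± 0.13 (SE, 95% interval 0.45 to 0.99, edgeR adjusted p = 0.0027). For this and the other RNAi groups, the share of all features whose 3 libraries separate in this way is not known. The call was made in each of the 6 fits that left out 1 library of these groups, but not when libraries were scaled to the spike-ins (0.64, adjusted p = 0.95). The mCherry libraries of this driver were the low ones. In mCherry RNAi ovaries qin held 53.6, 69.7 and 69.3 CPM under da-Gal4 and 58.3, 51.0 and 63.1 CPM under tj-Gal4. Against those 6 libraries, qin in nos-Gal4 mCherry RNAi ovaries was lower by -0.89 ± 0.12 (adjusted p = 0.000173), where 118 (1.53%) of features were called. Set against the same 6 libraries, qin in nos-Gal4 sov RNAi ovaries was at -0.17 (adjusted p = 0.43). This change of control was chosen after the qin levels had been seen, and it joins the driver with the hairpin.

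The other 9 genes did not pass under nos-Gal4. The closest was armi, with 190.5, 203.5 and 202.4 CPM in nos-Gal4 sov RNAi ovaries, against 265.1, 224.6 and 239.3 CPM in nos-Gal4 mCherry RNAi ovaries. These groups did not overlap, a separation whose share among all features is not known. The log2 fold change of -0.29 ± 0.09 (SE, edgeR adjusted p = 0.098) missed the threshold. For vas the levels were 240.5, 244.5 and 231.7 CPM with the sov hairpin and 242, 226.6 and 273.6 CPM with the mCherry hairpin, a log2 difference of -0.05 (95% interval -0.23 to 0.12). For tapas the difference was -0.01 (95% interval -0.18 to 0.16). The log2 differences of the others were 0.18 for shu, -0.14 for spn-E, -0.14 for zuc, -0.08 for tej, 0.06 for krimp and 0.05 for tud, with adjusted p from 0.51 (spn-E) to 0.89 (krimp).

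Under the somatic driver tj-Gal4, krimp was higher in the ovaries labelled sov RNAi, and 1 of 10 genes was called beside 912 (11.8%) of 7700 features. The krimp libraries held 90.2, 80.0 and 75.6 CPM in tj-Gal4 sov RNAi ovaries, against 64.8, 56.7 and 70.6 CPM in tj-Gal4 mCherry RNAi ovaries. The groups did not overlap, and the log2 fold change was 0.37 ± 0.11 (SE, 95% interval 0.13 to 0.61, edgeR adjusted p = 0.037). The call was lost without tj-Gal4 mCherry replicate 1 (0.37, adjusted p = 0.0998) or 2 (0.29, 0.18), and without tj-Gal4 sov RNAi replicate 1 (0.29, 0.15) or 2 (0.39, 0.072). It was also lost with a term for the spike-in subpool (0.39, adjusted p = 0.061) and in a fit of only the groups compared (0.37, 0.057). All 3 tj-Gal4 sov RNAi libraries were in pool 78A, while tj-Gal4 mCherry replicates 1 and 2 were in pool 78B, so pool and hairpin are partly confounded here. On the spike-in scale krimp was at -0.96, with the median of all features at -1.36. The armi libraries held 176.9, 188.5 and 191.7 CPM with the sov hairpin, against 206.9, 209.5 and 231.4 CPM with the mCherry hairpin. The log2 fold change was -0.19 ± 0.09 (adjusted p = 0.19), which was not called. Muscle markers summed to 3827 CPM in tj-Gal4 sov RNAi ovaries, against 871 CPM in tj-Gal4 mCherry RNAi ovaries, with 13 of 14 called higher. Follicle cell markers summed to 27700 against 43620 CPM, but of 20 tested, 2 were called higher and 2 lower. Germline markers summed to 4807 against 5556 CPM, with 1 of 15 higher and 1 lower. Hemocyte markers summed to 947 against 537 CPM, with 4 of 7 higher and 0 lower. The part of these sums in the krimp value was not tested. For vas (0.01, 95% interval -0.17 to 0.18) and tapas (-0.05, 95% interval -0.22 to 0.11) no difference was called. The remaining log2 differences were -0.09 for qin, 0.09 for tej, -0.09 for spn-E, -0.01 for shu, 0.01 for zuc and 0.00 for tud, with adjusted p from 0.56 (spn-E) to 0.99 (tud).

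**Figure D5:**
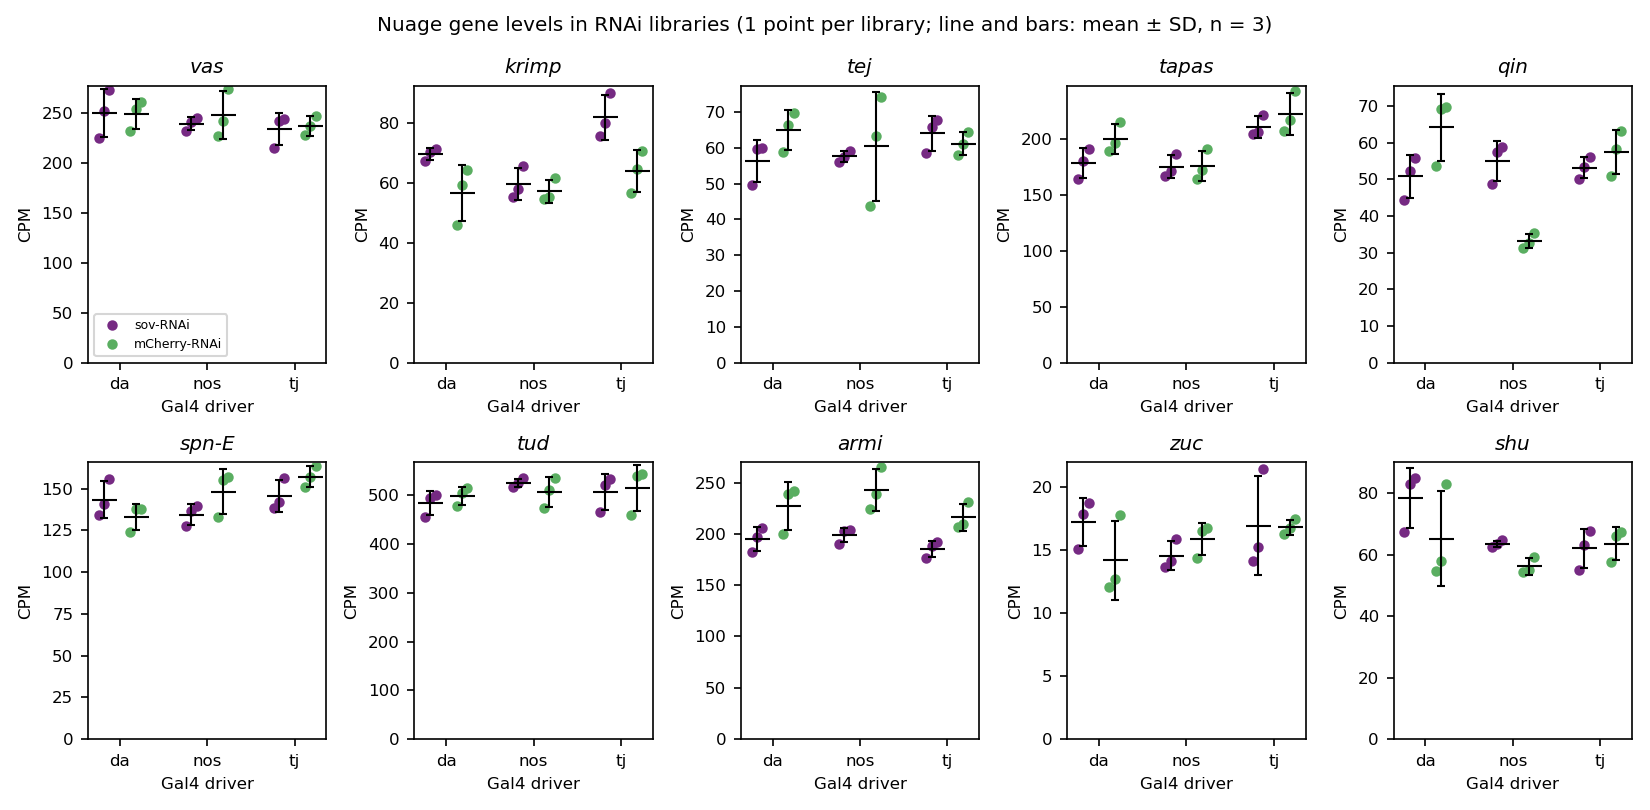
CPM of the 10 genes in single RNAi libraries (points) with the mean ± SD (n = 3), the sov hairpin left of the mCherry hairpin for each driver. The qin points of nos-Gal4 mCherry RNAi, 31.4 to 35.4 CPM, lie below those of every other RNAi group.

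The test of the difference between the nos-Gal4 and tj-Gal4 effects called qin alone among the 10 genes, beside 375 (4.87%) of features. The nos-Gal4 effect exceeded the tj-Gal4 effect by 0.81 ± 0.18 on the log2 scale (SE, 95% interval 0.44 to 1.18, edgeR adjusted p = 0.0089), and the call was made in all 12 fits that left out 1 library. In tj-Gal4 ovaries qin held 50.3, 56.0 and 53.3 CPM with the sov hairpin and 58.3, 51.0 and 63.1 CPM with the mCherry hairpin, which overlapped. The krimp effects of these drivers differed by -0.31 ± 0.16 (adjusted p = 0.37), so the tj-Gal4 krimp call was not shown to differ from the nos-Gal4 value of 0.06. The other differences between these effects were 0.19 for shu, -0.17 for tej, -0.15 for zuc, -0.10 for armi, -0.06 for vas, -0.05 for spn-E, 0.05 for tud and 0.04 for tapas, with adjusted p from 0.71 (shu) to 0.91 (tapas).

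The rest of the pathway was described by a list of 19 other cytoplasmic piRNA genes and a list of 16 nuclear ones, all tested. In sterile mutants against controls, 2 cytoplasmic genes were higher and 5 lower, with a median log2 fold change of -0.02. The lower ones included AGO3, one of the nuage nucleases (-1.80 ± 0.31 SE, edgeR adjusted p = 5.29e-05), mael (-0.46, 0.00018) and the helicase gene bel (-0.33, 0.0033). The higher ones were the mitochondrial acyltransferase gene mino (0.20, 0.029) and BoYb (0.24, 0.043), a Tudor-domain helicase gene. Of the nuclear genes, 2 were higher and 5 lower, with a median of -0.16. The largest rise was that of cuff, a factor for transcription of piRNA clusters (1.12 ± 0.14, adjusted p = 1.21e-06), the other was in Hpr1 (0.13, 0.030), and the falls with the smallest adjusted p were in nxf2 (-0.46, 0.00018), arx (-0.55, 0.00063) and del (-0.39, 0.0077). The largest value among the 10 genes in this comparison was -0.35, for vas.

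Against the fertile mutants, the sterile mutants had 2 cytoplasmic genes higher, fs(1)Yb (0.68, edgeR adjusted p = 0.031) and mino (0.22, 0.032), and 4 lower, among them me31B (-0.54, 0.0010), AGO3 (-1.09, 0.0096) and mael (-0.28, 0.023). Of the nuclear genes cuff was higher (0.86, 0.00015) and 5 were lower, among them del (-0.50, 0.0028), Boot (-0.36, 0.011) and arx (-0.42, 0.012).

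In fertile mutants 1 gene of each list was called, BoYb at 0.36 (edgeR adjusted p = 0.030) and wde at 0.40 (0.0054). Under da-Gal4, 2 cytoplasmic genes were higher, vret (0.57, 0.00084) and daed (0.45, 0.020), and 3 were lower, AGO3 (-2.66 ± 0.33, 1.05e-05), the Piwi-family gene aub (-0.49, 0.0030) and papi (-0.57, 0.019). In the same comparison 5 nuclear genes were higher, of which Hel25E (0.38, 0.0017), wde (0.52, 0.0037) and cuff (1.18, 0.0061) had the smallest adjusted p, and 2 were lower, del (-0.34, 0.029) and Boot (-0.29, 0.035). Under nos-Gal4 no cytoplasmic gene was called, and of the nuclear genes only nxf2 was (0.77 ± 0.13, 0.0012). Under tj-Gal4 the 3 cytoplasmic calls were all lower, me31B (-0.35, 0.030), Gasz (-0.32, 0.045) and squ (-0.35, 0.0498), and piwi was the 1 nuclear gene called (-0.34, 0.012). The nos-Gal4 and tj-Gal4 effects differed for Gasz (0.54, 0.036) and nxf2 (1.16, 0.00051).

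The 10 genes did not vary as one group over the 30 genotypes. Among their 45 pairs, Pearson's r of log2(CPM + 1) ran from -0.57 for tud with shu to 0.78 for spn-E with armi. For vas with tapas r was 0.59, and for zuc with shu it was 0.64. These values describe genotype means that share alleles, libraries and scaling. Among all 8448 genes considered, the pattern most like that of armi was that of piwi (r = 0.889), and for shu it was Sps1 (0.899). For vas it was CG7379 (0.850), for tapas FBgn0039959 (0.861), for tud Khc-73 (0.858), for tej PIP4K (0.817) and for spn-E Dis3l2 (0.813). The likeness was lower for krimp (cid, 0.698), zuc (CG34149, 0.712) and qin (Polr3B, 0.645).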

How the data were processed

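The authors deposited counts of reads per gene, transposable element family and ERCC spike-in, 1 column per library and not normalised. Reads were single-end, of 50 bp, and mapped to genome release 6.21, per the series' design text. Tools listed per the submitters' processing notes are HISAT2 2.0.5, HTSeq 0.7.2 and CASAVA 1.8.2. The HTSeq settings for strand and for reads with several matches are not given in the sources used here. The 5 counting summaries, 12.55% to 63.09% of the reads of a library, were left out. No 2 of the 90 libraries were identical, and 17365 of the genes were matched to a symbol in a release 6 annotation.

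Tests used edgeR 4.0.16 (quasi-likelihood, TMM, filterByExpr, Benjamini-Hochberg over all genes and elements tested, threshold 0.05) with limma 3.58.1 in R 4.3.3. The SE is the size of the log2 fold change divided by the square root of F. Class comparisons used counts summed over each genotype's libraries in a fit of 24 genotypes. RNAi comparisons used 18 libraries in 6 groups. Single genotypes were tested in a fit of the 72 mutant and control libraries less the 3 under 100000 gene counts. Alternatives were DESeq2 1.42.0, other scalings (RLE and spike-ins), no filter, each spike-in pool, reciprocal crosses merged, libraries as replicates, a replicate block and leaving out genotypes or replicates. Tests were also run on simulated data with known changes. Tables and plots used Python 3.11.15, pandas 2.3.3 and matplotlib 3.10.9.

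All 10 genes are given in the 7 comparisons of classes and drivers, and in single genotypes where they were called. Of the other pathway lists, up to 3 rises and 3 falls with the smallest adjusted p are named for each comparison, and for likeness the gene with the highest r. The genes, lists and tests were chosen with earlier results of these data known. Replicate numbers are shared between RNAi groups. The deviations of samples with the same number correlated at -0.22 to 0.317, and all were positive under da-Gal4 (0.038 to 0.317). The numbers were not treated as pairs, but this check cannot exclude a pairing.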

Additional observations from a re-analysis of the deposited data

Results flagged for a closer look

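Within classes of 7 or 10 genotypes, 30 groups of genotype means were examined for a genotype far from the rest, and chance picks out about 1 in 20 such groups. Picks as few as those below could therefore arise by chance alone. In the controls, vas in sovML150/w1118 stood apart at 329.4 CPM, with its 3 libraries at 332.6, 328.3 and 327.3 CPM. Also in the controls, tapas in sov2/w1118 stood apart at 221 CPM, from 2 libraries at 218.3 and 223.7 CPM, since the third held 2110 gene counts. The nos-Gal4 effect on qin differed from the tj-Gal4 effect by 0.81 on the log2 scale in the test of the difference itself (edgeR adjusted p = 0.0089). The low group behind it was nos-Gal4 mCherry RNAi, at 31.4 to 35.4 CPM.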

How the results depend on the processing

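The class and RNAi comparisons gave 70 values for the 10 genes, most of them not called. With DESeq2 or RLE scaling each of the 70 stayed called or not called as before. In single genotypes 35 (DESeq2) and 36 (RLE) of the 36 calls were made again. A replicate block gave 1631, 189, 890 and 364 called features (da-Gal4, nos-Gal4, tj-Gal4 and the nos minus tj difference), against 1622, 202, 912 and 375 without it, and changed no call of the 10 genes, nor any of the 36. In the other fits the replicate numbers were not treated as pairs. Without the filter on low counts, 5853 features were called in sterile mutants against controls, 4696 in sterile against fertile mutants, 449 under nos-Gal4 and 708 in the nos minus tj difference.

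Spike-in scaling moved the median of all features by -1.33 (sterile against controls), 0.39 (fertile), -1.73 (sterile against fertile), -0.21 (da), -0.08 (nos), -1.36 (tj) and 1.27 (nos minus tj). It called 7600, 216, 7605, 443, 122, 7074 and 6124 features in that sequence of comparisons. All 10 genes were then called in sterile mutants against either group, under tj-Gal4 and in the nos minus tj difference, 0 under nos-Gal4, and 57 values in single genotypes, where 23 of the 36 calls kept their direction and 7 turned. Sign changes of values called on neither scale are not listed here. Among values called on either scale, those that changed sign in sterile mutants against controls were krimp -1.27, qin -1.11 and tud -1.25. In sterile against fertile mutants they were krimp -1.73, qin -1.45, spn-E -1.66, tud -1.75 and zuc -1.43. Under tj-Gal4 they were vas -1.37, krimp -0.96, tej -1.28, tud -1.36 and zuc -1.33, and in the nos minus tj difference vas 1.23, krimp 0.93, tej 1.11, spn-E 1.22, armi 1.17 and zuc 1.11. In single genotypes they were qin -1.87 and tud -1.73 (Dfsov/sov2), tapas 0.019 (NP6070/sov2), vas -1.48, krimp -1.16, tej -1.47, qin -1.06, spn-E -1.48, tud -1.36 and zuc -1.29 (sovEA42/KG00226), krimp -0.53, tej -0.85, qin -0.47, spn-E -0.80, tud -0.84 and shu -0.84 (sovEA42/sov2), krimp -2.63 (sovML150/KG00226), and krimp -2.63 and tud -2.30 (sovML150/sov2). That scaling shifts all genes of a library together by construction.

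Pool 78A alone called 2330, 114 and 1150 features (sterile against controls, fertile against controls, sterile against fertile) with 4, 0 and 0 of the 10 genes, and pool 78B alone 2174, 141 and 1767 with 3, 0 and 0, from fewer libraries. Pool 78A held no library of sovML150/KG00226, sov2/KG00226 or sov2/NP6070. Pool 78B held none of KG00226/KG00226 or NP6070/w1118, and only a library under 100000 gene counts for Dfsov/sov2 and for sov2/w1118. Libraries as replicates called 6139, 2964 and 5883 features with 8, 6 and 7 of the 10 genes. Merging reciprocal crosses called 96 features in fertile mutants, and left tapas as the 1 call in sterile against fertile mutants. Fitting only the groups compared called 785 features under da-Gal4, and this or a term for the spike-in subpool left 0 of the 10 genes under tj-Gal4. With da-Gal4 and tj-Gal4 mCherry libraries as control, chosen after seeing the data, 608 features were called for nos-Gal4 sov RNAi and qin turned to -0.17. The cause of these changes was not tested.

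Leaving out 1 genotype gave 3235 to 4450 features and 2 to 4 of the 10 genes in sterile mutants against controls, 215 (without NP6070/KG00226) to 411 and 0 in fertile mutants, and 2397 to 3931 and 1 to 3 in sterile against fertile mutants. The 4 genes were reached without NP6070/NP6070, sovEA42/KG00226 or sovML150/KG00226. Leaving out 1 library gave 944 (without da-Gal4 mCherry replicate 3) to 1974 features and 0 to 3 of the 10 genes under da-Gal4, where the count without da-Gal4 sov RNAi replicate 1 was 987. Under nos-Gal4 it gave 121 (without mCherry replicate 1) to 158 and 1 gene, with 134 and 123 without sov RNAi replicates 1 and 3. Under tj-Gal4 it gave 681 to 866 and 0 to 1 gene. The nos minus tj difference had 238 (without nos-Gal4 mCherry replicate 2) to 422 and 1 gene, with 249 without nos-Gal4 sov RNAi replicate 1 and 245 without tj-Gal4 sov RNAi replicate 2. Leaving out a replicate number gave 24 to 31 calls in single genotypes. Depth limits zuc most, at 17 counts in its lowest library over 100000.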
